A study of Rattus norvegicus with 48 samples.

Results

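The 9 genes described here mark T lymphocytes and their traffic, and were followed through rat lung RNA sequencing. They are the T cell receptor chains Cd3d, Cd3e and Cd3g, the coreceptors Cd4 and Cd8a, the lymph node homing receptor Ccr7, the transcription factors Lef1 and Tcf7, and the regulatory T cell factor Foxp3. They were chosen by gene name in the 3 deposited tables, and each of the 9 names had 1 row among the 32285 gene identifiers. The study exposed male Sprague-Dawley rats, an outbred strain, to 1 mg/m3 diesel particles mixed with fracking sand dust at 30 mg/m3, or to filtered air alone, by whole-body inhalation for 6 hours a day on 4 days. Lungs were taken at day 1, 7 or 27 afterwards, with 8 exposed and 8 air rats at each day and 48 rats in all. The rats carried no transgene and no other treatment was named, no age was given in the labels, and the labels do not say which of the pair-housed rats shared a cage. RNA came from a piece of lung, so each value mixes all cells of that piece, and fewer T cells cannot be told apart from less RNA per T cell.

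Depth ran from 9445687 to 14400337 summed expected counts per library, with a median of 12004528. Lung markers were high throughout, with surfactant protein gene Sftpc at 6463 CPM (counts scaled to the size of the library) or more in every library. In 4 pairs of libraries, numbered within a group by animal number, the counts lay closer together than in any of the other 164 within-group pairs. They were libraries 1 and 4 of exposed day 1, 3 and 6 of exposed day 7, 1 and 4 of air day 7, and 3 and 6 of air day 27. Relative to counting noise, the median of their squared differences was 1.44 to 1.67, against 2.42 or more in the others. Means ± SD count such a pair once (n = 7), and the main tests keep all 48 libraries.

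A T cell recognises antigen through its receptor, whose variable chains pass the signal inward through the CD3 chains delta, epsilon and gamma encoded by Cd3d, Cd3e and Cd3g. CD4 and CD8 hold the receptor on the antigen-presenting molecule and divide T cells into helper and cytotoxic kinds. In rats, monocytes and macrophages also carry CD4 and NK cells also carry CD8 alpha. CCR7 answers the chemokines CCL19 and CCL21 and leads naive and central memory T cells, and mature dendritic cells, into lymph nodes and lymphoid aggregates. LEF1 and TCF1, the product of Tcf7, are partner factors of Wnt signalling that are abundant in naive T cells, and Lef1 is also expressed outside T cells. FOXP3 defines regulatory T cells, which restrain immune responses in tissues such as the lung.

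The genes of the CD3 chains lie beside each other, and their levels moved together from library to library, so the 250 bases before each start are shown. In the rat genome build GRCr8 (RefSeq) the windows are chr8:54185269-54185518 on the plus strand for Cd3d, chr8:54211771-54212020 on the minus strand for Cd3e and chr8:54183919-54184168 on the minus strand for Cd3g. Cd3d and Cd3g are thus transcribed away from each other. Capitals mark matches, on either strand, to letters bound by factor families active in T cells.
Cd3d: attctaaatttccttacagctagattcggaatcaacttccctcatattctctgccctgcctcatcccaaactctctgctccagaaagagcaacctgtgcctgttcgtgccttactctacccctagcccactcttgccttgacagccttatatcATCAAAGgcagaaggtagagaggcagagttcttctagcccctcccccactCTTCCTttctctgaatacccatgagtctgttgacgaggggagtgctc
Cd3e: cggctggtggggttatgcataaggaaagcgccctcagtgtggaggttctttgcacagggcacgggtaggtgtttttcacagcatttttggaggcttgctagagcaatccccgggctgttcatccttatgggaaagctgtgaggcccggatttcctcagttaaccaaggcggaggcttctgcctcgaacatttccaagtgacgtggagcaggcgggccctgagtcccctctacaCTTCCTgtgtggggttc
Cd3g: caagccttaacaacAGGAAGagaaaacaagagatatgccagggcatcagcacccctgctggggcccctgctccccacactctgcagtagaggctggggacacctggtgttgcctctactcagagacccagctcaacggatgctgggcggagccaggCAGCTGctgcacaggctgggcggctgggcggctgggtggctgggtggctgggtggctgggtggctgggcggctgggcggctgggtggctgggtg

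The letters searched were CTTTGAT for TCF/LEF factors, TGTGGT for RUNX, AGGAAG for ETS and CAGCTG for an E-box, none of which overlaps another in these windows. RefSeq windows were matched for 7 of the 9 genes, the others being Ccr7 and Cd4. The TCF/LEF letters stood in 1 of the 7, Cd3d, 97 bases before its start on the opposite strand, and in 3.15% of 33469 promoters of the same length. ETS letters stood in 4 of the 7 (Cd3d, Cd3e, Cd3g and Tcf7) and in 29.5% of all promoters. The E-box letters stood in Cd3g alone among the 7, and in 12.0% of all promoters. RUNX letters stood in 0 of the 7 and in 14.5% of all promoters. A match shows that the letters are there, not that a factor binds.

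Of the 9 genes, Ccr7 was called lower in exposed than in air lungs at day 27, and none of the others passed the test at any day. Each day was tested across all genes with edgeR's quasi-likelihood test, and a gene was called at a Benjamini-Hochberg adjusted p under 0.05. At day 1, 0 of the 9 were called, while 0.0279% of the 14314 genes tested were called. At day 7, 0 of the 9 were called and 0% of the 14259 genes tested. At both days 0 of the 9 had an unadjusted p under 0.05, against 8.67% of all genes at day 1 and 8.47% at day 7, and DESeq2 and limma-voom also called 0 of the 9. At day 27, 1 of the 9 was called, which is Ccr7, against 5.52% of the 14192 genes tested, and 3 of the 9 had an unadjusted p under 0.05 (Cd3e, Ccr7 and Lef1), against 26.7% of all genes, a share near that of the 9.

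**Figure D1:**
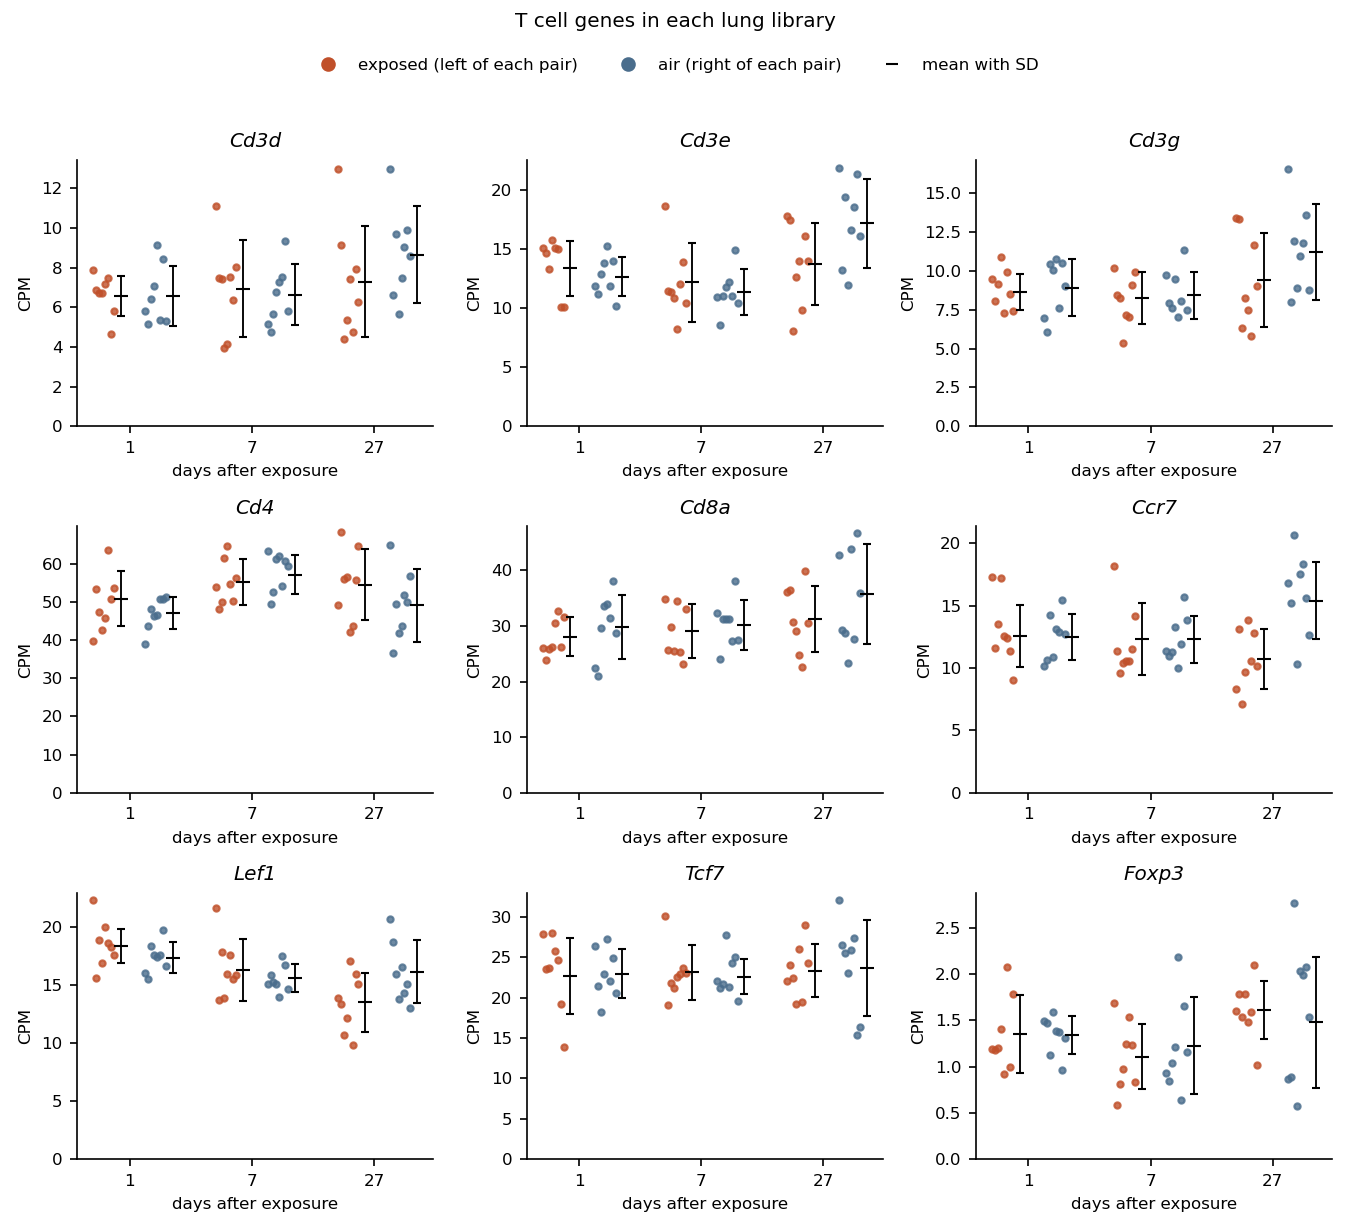
Level of each of the 9 genes in CPM (vertical axis, from 0) in every library, by days after exposure (horizontal axis), with exposed rats in orange left of air rats in blue and black marks for mean and SD. At day 27 the exposed libraries lie between 7.13 and 13.9 CPM for Ccr7 and the air libraries between 10.3 and 20.7 CPM.

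The CD3 chains report T cell receptor message most directly. At day 27, Cd3e (ENSRNOG00000016069), whose epsilon chain is shared by every receptor complex, ran from 8.03 to 17.8 CPM in exposed lungs with a median of 14.0 CPM. In air lungs at day 27 it ran from 12.0 to 21.9 CPM with a median of 17.6 CPM. The groups overlapped, with 2 exposed libraries below the lowest air library and 4 air libraries above the highest exposed one. The log2 fold change was -0.34 ± 0.16 (SE), with a 95% interval of -0.68 to -0.01, and the edgeR adjusted p was 0.181. Cd3d (ENSRNOG00000015994), the delta chain gene, ran from 4.42 to 12.9 CPM (median 6.84 CPM) in exposed lungs and from 5.65 to 13.0 CPM (median 8.81 CPM) in air lungs. The lowest 3 exposed libraries lay below every air library, yet the highest values of both groups were alike, and the log2 fold change was -0.26 ± 0.21 (adjusted p = 0.434 by edgeR).

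Cd3g (ENSRNOG00000015945), for the gamma chain, ran from 5.78 to 13.4 CPM (median 8.65 CPM) in exposed lungs and from 8.01 to 16.6 CPM (median 11.4 CPM) in air lungs at day 27. Its log2 fold change was -0.26 ± 0.19 (adjusted p = 0.388 by edgeR), and again 3 exposed libraries lay below every air library. Ribosomal protein genes took 2.21 ± 0.136% of the counts in exposed lungs (SD, n = 8) and 2.54 ± 0.283% in air lungs (SD, n = 7) at day 27. With that share as a covariate, an alternative chosen after seeing the data, Cd3d was at 0.025, Cd3e at -0.010 and Cd3g at 0.061, so the direction of Cd3d and Cd3g turned. The mean share itself differed between the groups, so fits with this covariate cannot fully tell the share and the exposure apart. Within the exposed group, library 1 was the highest for all 3 chains, at 12.9 CPM for Cd3d, 17.8 CPM for Cd3e and 13.4 CPM for Cd3g. Libraries 3 and 6 were the lowest for Cd3e, at 8.03 and 9.80 CPM.

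At days 1 and 7 the chains lay close to air. At day 1 Cd3e averaged 13.4 ± 2.33 CPM in exposed lungs (SD, n = 7) and 12.7 ± 1.67 CPM in air lungs (SD, n = 8), giving a log2 fold change of 0.11 ± 0.11 and an interval of -0.11 to 0.33. Cd3d and Cd3g had day 1 log2 fold changes of 0.02 ± 0.14 and -0.01 ± 0.12. At day 7 the values were 0.09 ± 0.19 for Cd3d, 0.09 ± 0.13 for Cd3e and -0.07 ± 0.13 for Cd3g. Exposed library 1 of day 7 was the highest of its group for 8 of the 9 genes, Cd4 being the exception, and without it the values of Cd3d and Cd3e were -0.03 and -0.03.

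**Figure D2:**
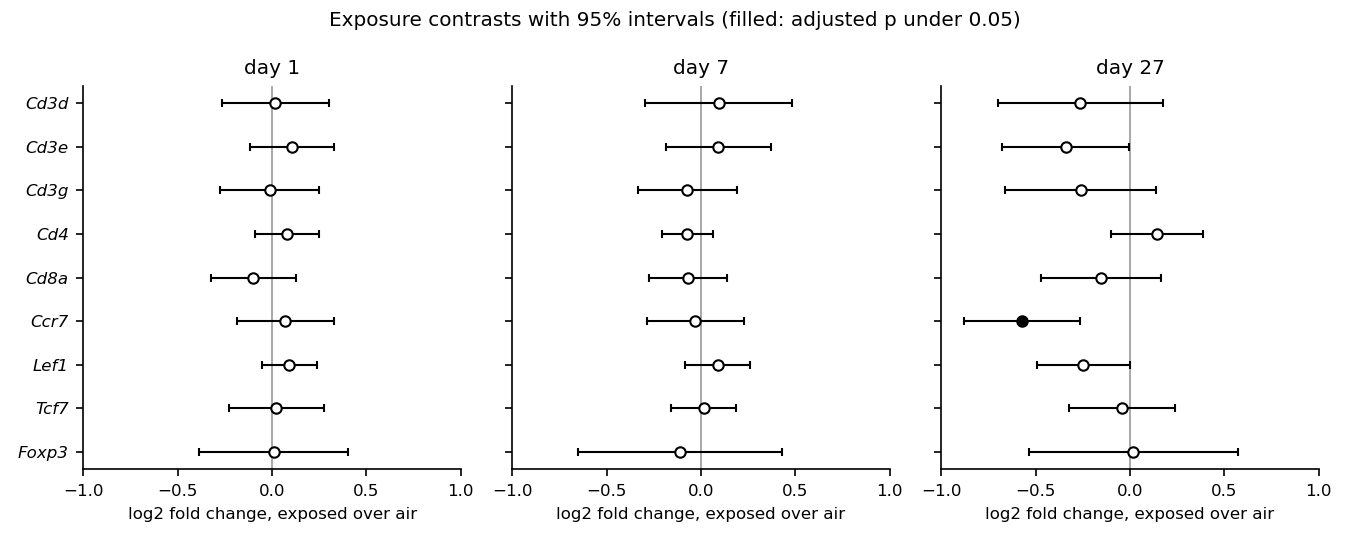
Log2 fold change of exposed over air (horizontal axis) for the 9 genes (vertical axis) at days 1, 7 and 27, with 95% intervals and filled points for an adjusted p under 0.05. The intervals of the CD3 chains at days 1 and 7 span 0, and at day 27 Ccr7 alone has a filled point, at -0.57.

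Of the coreceptors, Cd4 (ENSRNOG00000016294) was the only one of the 9 genes besides Foxp3 with a day 27 value above 0. It ran from 42.2 to 68.3 CPM (median 55.9 CPM) in exposed lungs and from 36.6 to 64.9 CPM (median 49.7 CPM) in air lungs. The groups overlapped almost wholly, with 1 exposed library above all air libraries and 2 air libraries below all exposed ones. The log2 fold change was 0.14 ± 0.12 with an interval of -0.10 to 0.39 (adjusted p = 0.446 by edgeR). At days 1 and 7 Cd4 had log2 fold changes of 0.08 ± 0.08 and -0.07 ± 0.06. Beside it, the 12 macrophage and monocyte genes, some of whose cells carry CD4 in rats, summed to 740 ± 33.1 CPM in exposed lungs (SD, n = 8) and 743 ± 45.8 CPM in air lungs (SD, n = 7) at day 27.

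Cd8a (ENSRNOG00000007178), the CD8 alpha chain gene, ran from 22.6 to 39.9 CPM (median 30.6 CPM) in exposed lungs and from 23.4 to 46.7 CPM (median 32.6 CPM) in air lungs at day 27. The groups overlapped, with 1 exposed library below every air library and 3 air libraries above every exposed one, and the log2 fold change was -0.15 ± 0.15 (adjusted p = 0.533 by edgeR), or 0.00022 with the ribosomal protein share as a covariate. The values at days 1 and 7 were -0.10 ± 0.11 and -0.07 ± 0.10. Their intervals, -0.33 to 0.13 and -0.28 to 0.14, both span 0.

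Ccr7 (ENSRNOG00000010665) carried the one called difference. At day 27 it ran from 7.13 to 13.9 CPM with a median of 10.3 CPM in exposed lungs, against 10.3 to 20.7 CPM with a median of 16.2 CPM in air lungs. Every exposed library lay below the air mean, 4 of the 8 lay below the lowest air library, and 6 of the 8 air libraries lay above the highest exposed one. Means were 10.7 ± 2.39 CPM in exposed lungs (SD, n = 8) and 15.4 ± 3.07 CPM in air lungs (SD, n = 7). The log2 fold change was -0.57 ± 0.15 with an interval of -0.88 to -0.27, a level 0.673 times that of air (adjusted p = 0.0353 by edgeR).

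At day 1 Ccr7 averaged 12.5 ± 2.50 CPM in exposed lungs (SD, n = 7) and 12.5 ± 1.84 CPM in air lungs (SD, n = 8), giving a log2 fold change of 0.07 ± 0.12. At day 7 it averaged 12.3 ± 2.91 CPM in exposed lungs and 12.3 ± 1.90 CPM in air lungs (SD, n = 7 each), giving a log2 fold change of -0.03 ± 0.12. The gap thus stood at day 27 and not in the means of the earlier days. Tested as a difference between days, the exposure effect at day 27 minus that at day 1 was -0.64 ± 0.19 for Ccr7 (adjusted p = 0.104 by edgeR), and minus that at day 7 it was -0.54 ± 0.20 (adjusted p = 0.203 by edgeR).

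The call of Ccr7 at day 27 stood near its threshold. It was kept in 5 of the 16 fits that left out 1 library, with log2 fold changes from -0.64 to -0.50 and edgeR adjusted p from 0.0220 to 0.0750, and lost without air libraries 3, 5, 6, 7 or 8 or without exposed libraries 1, 3, 4, 6, 7 or 8. Air libraries 3 and 6, the close pair, held the highest values at 20.7 and 18.3 CPM, and with close pairs summed the log2 fold change was -0.53 (adjusted p = 0.0682 by edgeR). With the ribosomal protein share as a covariate Ccr7 was at -0.35 (adjusted p = 0.833 by edgeR), and 0 of the 14192 genes were called. With 1 surrogate variable it was at -0.49 (adjusted p = 0.170 by edgeR).

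The other genes of the CCR7 route were read beside it. Ccl21, a ligand, averaged 134 ± 29.7 CPM in exposed lungs (SD, n = 8) and 157 ± 26.9 CPM in air lungs (SD, n = 7) at day 27, giving a log2 fold change of -0.24 (adjusted p = 0.253 by edgeR). Ccl19, the other ligand, averaged 2.38 ± 1.41 CPM in exposed lungs and 3.77 ± 1.82 CPM in air lungs, giving a log2 fold change of -0.75 ± 0.35 (adjusted p = 0.178 by edgeR).

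Lef1 (ENSRNOG00000010121) ran from 9.80 to 17.0 CPM (median 13.6 CPM) in exposed lungs at day 27 and from 13.0 to 20.7 CPM (median 15.5 CPM) in air lungs. Of the exposed libraries, 1 of 8 lay above the air mean, and the 3 lowest exposed libraries lay below every air library. The log2 fold change was -0.25 ± 0.12, with an interval that ended just below 0 (adjusted p = 0.187 by edgeR). At days 1 and 7 Lef1 had log2 fold changes of 0.09 ± 0.07 and 0.09 ± 0.08. The exposure effect at day 27 differed from that at day 1 by -0.34 ± 0.13 (adjusted p = 0.211 by edgeR).

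Tcf7 (ENSRNOG00000005872), the partner factor, lay near air at every day. At day 27 it ran from 19.2 to 29.0 CPM (median 23.3 CPM) in exposed lungs and from 15.4 to 32.1 CPM (median 25.7 CPM) in air lungs. The air libraries enclosed all the exposed ones, and the log2 fold change was -0.04 ± 0.13 with an interval of -0.32 to 0.24 (adjusted p = 0.866 by edgeR). At days 1 and 7 it was 0.02 ± 0.12 and 0.01 ± 0.08.

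Foxp3 (ENSRNOG00000011702) was the scarcest of the 9 in counts, with 6 to 30 per library. At day 27 it ran from 1.01 to 2.09 CPM (median 1.59 CPM) in exposed lungs and from 0.574 to 2.77 CPM (median 1.76 CPM) in air lungs. The air libraries again enclosed the exposed ones, and the log2 fold change was 0.02 ± 0.26 with an interval of -0.54 to 0.57 (adjusted p = 0.974 by edgeR). At days 1 and 7 it was 0.01 ± 0.19 and -0.11 ± 0.26. The intervals of Foxp3 were the widest of the 9 genes at all 3 days.

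Differences between days were contrasts in a single edgeR fit of all 48 libraries. For the exposure effect at day 27 minus that at day 1, 0 of the 9 genes were called and 0.498% of the 14852 genes tested. Of the 9, 3 had an unadjusted p under 0.05 (Cd3e at -0.45 ± 0.20, Ccr7 and Lef1), against 14.6% of all genes, and DESeq2 called 1, Ccr7, at an adjusted p of 0.0484. For day 27 minus day 7, 0 of the 9 and 0.0202% of all genes were called, the same 3 genes had an unadjusted p under 0.05 against 14.9% of all genes, and DESeq2 called 0 of the 9. For day 7 minus day 1, edgeR and DESeq2 called 0 of the 9 and 0% of all genes were called, with 0 of the 9 at an unadjusted p under 0.05.

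Averaged over the 3 days, 0 of the 9 were called by edgeR or DESeq2 and 6.88% of all genes were called by edgeR. Ccr7 had the lowest of the averaged log2 fold changes, -0.18 ± 0.08 (adjusted p = 0.141 by edgeR), and was the 1 gene of the 9 with an unadjusted p under 0.05, against 26.1% of all genes. Cd4 alone was above 0, at 0.05 ± 0.06.

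Within each treatment the levels were also followed from day to day, where day, age and deposited table cannot be told apart. In exposed lungs, day 27 over day 7 called 12.1% of all genes, 945 higher and 845 lower. Of the 9, 1 was called, Lef1, which was lower at day 27. Its means were 13.5 ± 2.53 CPM in exposed lungs at day 27 (SD, n = 8) and 16.3 ± 2.70 CPM at day 7 (SD, n = 7), giving a log2 fold change of -0.29 ± 0.10 (adjusted p = 0.0394 by edgeR). It was called in 40 of the 48 fits that left out 1 library, with adjusted p up to 0.114 by edgeR without 1 of exposed day 7 libraries 1, 3 and 6 or exposed day 27 libraries 1, 2, 3, 4 and 6, and it was not called with close pairs summed. Ccr7 had a log2 fold change of -0.17 ± 0.14 and Cd3e one of 0.18 ± 0.14 over the same days, neither called. Day 7 over day 1 called 0 of the 9 in exposed lungs by edgeR or DESeq2, with 0 at an unadjusted p under 0.05 and 2.14% of all genes called.

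In air lungs, day 27 over day 7 called 39.7% of all genes, 2966 higher and 2926 lower. Of the 9, 3 were called, Cd3e, Cd3g and Ccr7, all higher. Cd3e averaged 17.2 ± 3.80 CPM at day 27 and 11.4 ± 1.92 CPM at day 7 in air lungs (SD, n = 7 each), giving a log2 fold change of 0.62 ± 0.14 (adjusted p = 0.000642 by edgeR). It was called in 48 of 48 fits that left out 1 library and with close pairs summed. Ccr7 had a log2 fold change of 0.37 ± 0.14 (adjusted p = 0.0256 by edgeR) and Cd3g one of 0.40 ± 0.16 (adjusted p = 0.0366 by edgeR), and both calls were lost with close pairs summed. Leaving out 1 library ended the call of Ccr7 in 4 of 48 fits (air day 7 libraries 2 and 5, air day 27 libraries 3 and 6, adjusted p up to 0.0780 by edgeR). It ended that of Cd3g in 9 of 48 (air day 7 libraries 2, 3, 5, 6 and 8, air day 27 libraries 1, 3, 6 and 7, adjusted p up to 0.124 by edgeR). Cd3d was at 0.42 ± 0.19 (adjusted p = 0.0684 by edgeR). Between days 1 and 7, air lungs had 8.32% of all genes called, 781 higher and 455 lower at day 7. Of the 9, 1 was called, Cd4, which was higher at day 7. Its log2 fold change was 0.31 ± 0.10 (adjusted p = 0.0377 by edgeR), and this call too was lost with close pairs summed. It was kept in 40 of 48 fits that left out 1 library, with adjusted p up to 0.0840 by edgeR without 1 of air day 7 libraries 1, 4, 5 and 7 or air day 1 libraries 1 to 4.

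The air day 27 libraries enter both the air series and the exposure contrast of that day, so those values are not independent of each other. Mean Ccr7 was 12.5, 12.3 and 10.7 CPM in exposed lungs and 12.5, 12.3 and 15.4 CPM in air lungs on days 1, 7 and 27. Mean Cd3e was 13.4, 12.2 and 13.7 CPM in exposed lungs and 12.7, 11.4 and 17.2 CPM in air lungs on those days. For both genes the day 27 air mean was the highest of the 6 group means. The test of that difference in course is the day 27 minus day 7 contrast, in which neither gene was called (Ccr7 as given, Cd3e at -0.43 ± 0.20, edgeR adjusted p = 0.306).

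**Figure D3:**
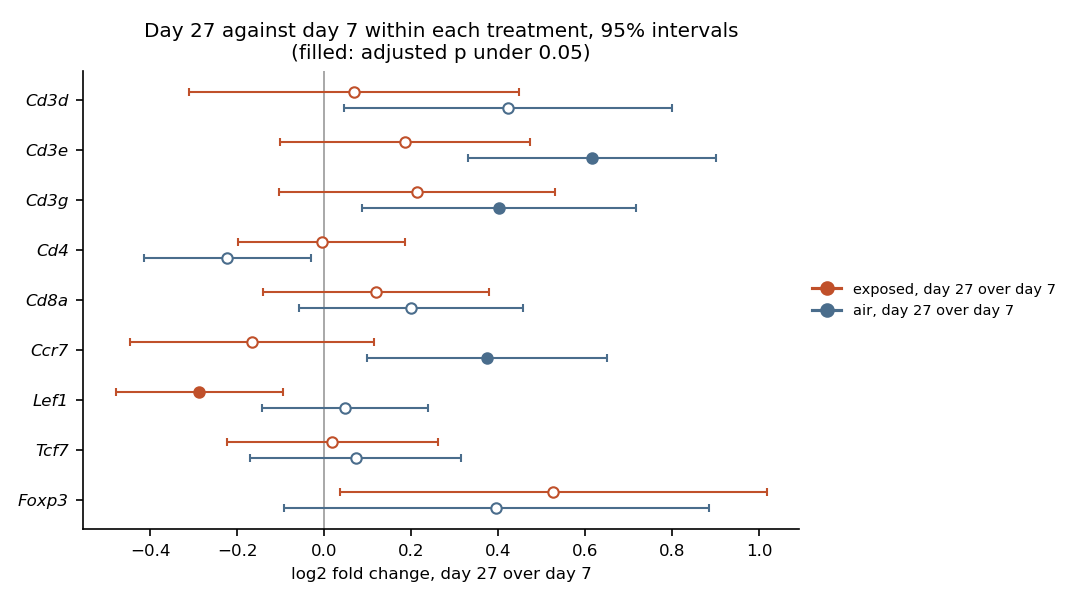
Log2 fold change of day 27 over day 7 (horizontal axis) for the 9 genes (vertical axis), in exposed lungs (orange, upper point) and air lungs (blue, lower point), with 95% intervals and filled points for an adjusted p under 0.05. Cd3e, Cd3g and Ccr7 are filled in air lungs, at 0.62, 0.40 and 0.37, and Lef1 is filled in exposed lungs, at -0.29.

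The wider T cell programme was read from lists chosen for their roles. At day 27 the 9 genes had a median log2 fold change of -0.25, with 7 below 0, against a median of -0.01 and 52.0% below 0 over all genes tested. Of those 7, Cd3d, Cd3g and Cd8a were not below 0 with the ribosomal protein share as a covariate. Of 15 genes of the T cell receptor complex and its signalling, 11 were below 0 with a median of -0.21, and 1 was called. Trac, Trbc1 and Trbc2, listed for the receptor's own chains, had no row. The 15 genes summed to 174 to 245 CPM in exposed lungs and 184 to 280.9 CPM in air lungs. Mean sums on days 1, 7 and 27 were 197, 188 and 207 CPM in exposed lungs. In air lungs they were 197, 188 and 232 CPM. Day 27 over day 7 called 9 of the 15 higher in air lungs, against 39.7% of all genes called. In exposed lungs it called 2 of the 15 higher, against 12.1% of all genes called. The called gene is Ptprcap, which encodes a partner protein of the phosphatase CD45 and averaged 18.3 ± 2.09 CPM in exposed lungs (SD, n = 8) and 24.4 ± 4.92 CPM in air lungs (SD, n = 7). Its log2 fold change was -0.45 ± 0.11 (adjusted p = 0.0332 by edgeR). The kinases of the receptor, Lck at -0.18 and Zap70 at -0.28, and the CD3 zeta chain gene Cd247 at -0.21 were not called. Of the 15 genes, 6 had an unadjusted p under 0.05, Lck and Zap70 among them, against 26.7% of all genes.

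The 12 T lineage factors and coreceptors had a median of -0.03 with 0 called by edgeR and 1 at an unadjusted p under 0.05, which is Runx3, a factor of cytotoxic T cells, at -0.26 ± 0.11 (adjusted p = 0.156 by edgeR). Of 14 naive and homing receptors 9 were below 0, and the median was -0.11. The 1 gene of that list that was called was higher in exposed lungs (adjusted p = 0.0479 by edgeR), and 0 were called lower. Klf2, which drives homing receptors in naive T cells, was at -0.43 ± 0.21 (adjusted p = 0.210 by edgeR). Its value, like the others, mixes all cells of the piece of lung, and the part of T cells in it was not tested.

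Of 7 regulatory T cell genes beside Foxp3, edgeR called 0, none had an unadjusted p under 0.05, and the median was -0.02. Their smallest p belonged to Ikzf4, the Eos gene, at 0.33 ± 0.17 (adjusted p = 0.220 by edgeR). The 9 Wnt pathway genes measured, read because Lef1 and Tcf7 act there, had a median of -0.06, with 0 called by edgeR and none at an unadjusted p under 0.05. At days 1 and 7, edgeR called 0 genes of any of the 11 lists, while 13 of 110 and 12 of 108 of their genes had an unadjusted p under 0.05, against the shares of all genes given above, 8.67% and 8.47%. At day 27, 32 of 109 genes of the 11 lists had an unadjusted p under 0.05, against 26.7% of all genes.

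Markers of the other lymphoid and myeloid cells in the same pieces of lung were set beside the T cell genes. At day 27, 12 of 12 B cell genes were below 0, with a median of -0.56, and 3 were called lower. Of the 12, 10 had an unadjusted p under 0.05, against 26.7% of all genes. Cd79a, a chain of the B cell receptor, averaged 21.0 ± 4.38 CPM in exposed lungs (SD, n = 8) and 33.8 ± 12.2 CPM in air lungs (SD, n = 7), giving a log2 fold change of -0.80 ± 0.20 (adjusted p = 0.0373 by edgeR). The other calls were Fcrla at -0.71 ± 0.16 and Fcer2, the low-affinity IgE receptor gene, at -0.48 ± 0.14. Summed, the 12 B cell genes ran from 174 to 235 CPM in exposed lungs and from 210 to 393 CPM in air lungs.

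Of 6 lymphoid tissue genes 5 were below 0 and Ltb, the lymphotoxin beta gene, was called lower at -0.42 ± 0.10 (adjusted p = 0.0338 by edgeR). An unadjusted p under 0.05 was found for 3 of the 6, against 26.7% of all genes. The 10 listed genes summed to 191 to 295.3 CPM in exposed lungs and 223 to 323 CPM in air lungs. The high endothelial venule genes Glycam1 and Madcam1 were at 0 in 4 and 45 of the 48 libraries, with at most 121 and 2 counts. Glycam1 was thus detected in most libraries, and whether the pieces held lymphoid tissue was not tested. Of the defining markers of thymus, Rag1, Rag2, Dntt and Ptcra reached at most 23, 6, 21 and 8 counts in any library and were at 0 in 4, 27, 1 and 13 of the 48. The 2 thymocyte genes that passed the filter on low counts, Arpp21 and Cd1d1, were at -0.42 ± 0.18 and -0.09 ± 0.06, and neither was called.

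Of 11 NK and cytotoxic genes edgeR called 0 (median -0.02), and 1 had an unadjusted p under 0.05, Ccl5 at -0.30 ± 0.13 (adjusted p = 0.169 by edgeR), and their sum ran from 238 to 367 CPM in exposed lungs and from 256.3 to 518 CPM in air lungs. Of 10 dendritic cell genes tested 6 were above 0 and 4 below, with a median of 0.13, and Zbtb46, a factor of classical dendritic cells, was called higher at 0.32 ± 0.08 (adjusted p = 0.0371 by edgeR). Of the others with an unadjusted p under 0.05, none of them called, Lamp3 was at 0.13, and Batf3 (-0.60), Fscn1 (-0.31) and Cd83 (-0.18) lay below 0. The dendritic cell genes had sums of 618 to 702 CPM in exposed lungs and 489 to 688 CPM in air lungs. Those sums mostly report Lamp3, which had 292234 counts over the 48 libraries, against 24038 for Itgax, the next highest of the list. Which cells of the lung carried Lamp3 or Zbtb46 was not tested, so neither value is a measure of dendritic cells alone. Of 11 macrophage genes 7 were above 0, with a median of 0.09, and the scavenger receptor gene Cd163 was called higher at 0.49 ± 0.14 (adjusted p = 0.0462 by edgeR), with sums of 702 to 793 CPM in exposed lungs and 685 to 824 CPM in air lungs. The part of these cells in the values of Ccr7 and the CD3 chains was not tested.

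**Figure D4:**
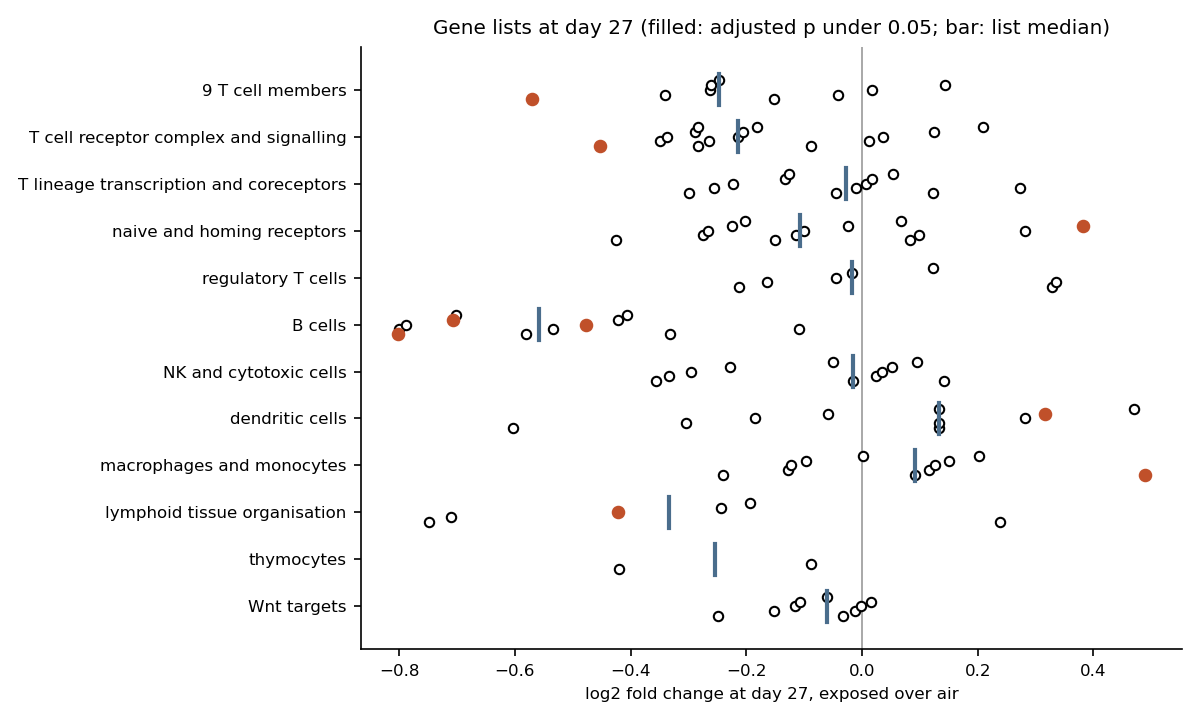
Log2 fold change of exposed over air at day 27 (horizontal axis) for the genes of each list (vertical axis), with filled orange points for an adjusted p under 0.05 and a blue bar at each list's median. The median of the 9 T cell genes is -0.25, that of B cell genes -0.56 and that of macrophage genes 0.09.

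Across libraries the CD3 chains varied together. With log2 CPM centred on each group's mean and close pairs averaged into 44 libraries, Pearson r was 0.86 between Cd3d and Cd3e, 0.78 between Cd3d and Cd3g and 0.72 between Cd3e and Cd3g. The mean of the 3 chains was then set against 7 other measures, with permutation p-values (100000 resamples, two-sided, within groups) adjusted over the 7. Cd8a had r = 0.59 and Spearman's rho 0.58 with it (adjusted permutation p = 0.00098 and 0.00144). Ccr7 had r = 0.57 and rho 0.57 (adjusted permutation p = 0.00140 and 0.00144). Without the 2 libraries farthest from the median, r was 0.62 for Cd8a and 0.65 for Ccr7.

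Lef1 had r = 0.56 and rho 0.49 with the CD3 level (adjusted permutation p = 0.00411 and 0.00803), and r = 0.54 without the 2 farthest libraries. Tcf7 had r = 0.39 and rho 0.44 (adjusted permutation p = 0.0186 and 0.00803), and r = 0.44 without them. Cd4 had r = 0.25 and rho 0.16 (adjusted permutation p = 0.159 and 0.348), and r = 0.33 without them. For Foxp3 r was 0.24 and rho 0.22 (adjusted permutation p = 0.159 and 0.204), and r = 0.26 without them. The mean of the B cell genes had r = 0.40 and rho 0.42 (adjusted permutation p = 0.0186 and 0.0105), and r = 0.44 without them. Cd8a, Ccr7, Lef1 and Tcf7 thus varied with the CD3 level between rats of a group, whereas for Cd4 and Foxp3 the test did not pass.

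The pairs outside the CD3 chains fell into a looser pattern. Lef1 had r = 0.58 with Tcf7 and 0.57 with Ccr7. Cd4 had its highest r, 0.55, with Cd8a and values near 0 with Ccr7 and Lef1 (0.02 each). Within-group spread differed too, with a mean coefficient of variation of 12.6% for Lef1 and 13.2% for Cd4, and of 27.2% for Cd3d and 31.4% for Foxp3. The genes of fewest counts, Foxp3 and Cd3d, had the widest spread.

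**Figure D5:**
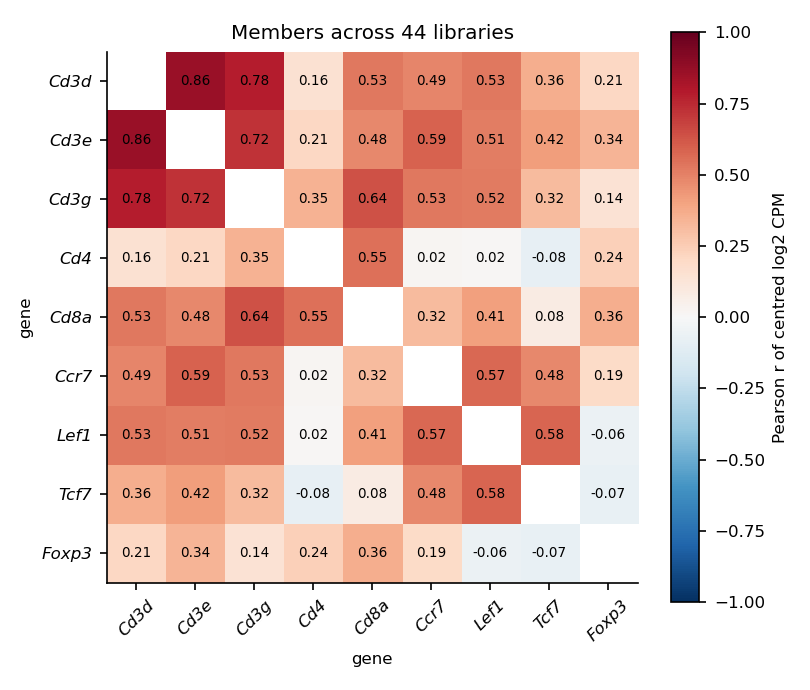
Pearson r between each pair of the 9 genes (both axes) over 44 libraries, from log2 CPM centred on each group's mean, with red for positive and blue for negative values. The CD3 chains form the reddest block, at 0.72 to 0.86, and the row of Cd4 is palest against Ccr7, Lef1 and Tcf7.

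Among 14126 genes with a mean of at least 1 CPM, those whose centred level was most like the mean of the CD3 chains were ranked over the same 44 libraries, as a description with no test. The highest r was that of AC109737.1, at 0.83, a name with no further annotation in the tables. Cd6 followed at 0.83, then Tnfrsf14 at 0.79, Lck at 0.73, Cd247 at 0.72 and Cd5 at 0.71. Plcl2 and Tbc1d10c were at 0.71, Gimap7 at 0.70 and Cmah at 0.68. Of these 10 genes, Cd6, Lck, Cd247 and Cd5 are on the list of receptor complex and signalling genes, where CD6 and CD5 are surface proteins that temper the receptor's signal.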

How the data were processed

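RNA from a piece of lung of 48 rats was sequenced from polyadenylated transcripts with a strand-preserving kit, per the labels' protocols. Tools listed in the submitters' processing notes are STAR 2.6.1d and Salmon 1.10.1, after bcl2fastq 2.19, Trim Galore 0.6.7 and cutadapt 3.4, with the build Rnor_6.0, and settings are not given in the sources used here. The authors deposited expected counts (fragments estimated for each gene) in 1 table per day, without normalization. On average 5.58% of a library's values were not whole (tolerance 1e-06), and all were rounded. Of the identifiers, 4671 share a gene name, and of those sharing one the identifier with most counts was used (Gzmb, Ltb and Tnfsf11 have 2 each).

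Tests used edgeR 4.0.16 in R 4.3.3 with TMM factors, filterByExpr, its quasi-likelihood F test in robust form and p-values adjusted by Benjamini-Hochberg over all genes tested, each day by itself and contrasts between days in 1 fit of 48 libraries. SE is the log2 fold change over the square root of F. CPM used TMM factors, with no gene lengths, so levels of different genes are not compared. An adjusted p is edgeR's unless another test is named. Differences are judged by the spread between libraries, each counted as a separate animal, and no batch or cage is given. The intervals do not cover dependence between close pairs.

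The 9 genes and 11 lists (128 genes, 122 with a row) were chosen with earlier results of these data known. The 9 were named at every day, and of each list up to 4 called genes per day by smallest p or, with none called, up to 2 by smallest p. Some genes that this rule selects are not reported here. Lck, Zap70, Cd247, Ccl19, Ccl21, Klf2, Lamp3, Batf3, Fscn1 and Cd83 were named outside that rule, for their roles or p-values and after their values were seen. The 10 genes most like the CD3 level were ranked by Pearson r of centred log2 CPM (prior count 2).

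Alternatives were RLE size factors, no filter, limma-voom (limma 3.58.1), a minimum mean of 1 CPM, DESeq2 1.42.0, all 48 libraries in one fit, 1 surrogate variable (sva 3.50.0), the log2 total count as a covariate, close pairs summed, and each library left out. Of these steps, the day 27 edgeR test alone was run on simulated counts, drawn independently for each library and so without close pairs. It called 34% of 50 genes changed 1.25-fold, 74% of 50 changed 1.5-fold and 94% of 50 changed 2-fold. Many changes of the smallest simulated size were thus missed. Libraries were compared in pairs over genes averaging 20 counts or more, and a pair under 2 times counting noise was called close. Promoter windows are from RefSeq on GRCr8, another build than that of the tables, and no coordinates of the tables' build are given.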

Additional observations from a re-analysis of the deposited data

Results flagged for a closer look

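Of 54 sets of values, each a gene in a group, 1 held a library far from the others by Dixon's test at its 5% level, where chance alone gives about 1 in 20. Tcf7 stood at 30.1 CPM in library 1 of the exposed day 7 group, against 19.1 to 23.7 CPM in the others of that group. The same library held the highest value of its group for Cd3d, Cd3e, Cd3g, Cd8a, Ccr7, Lef1 and Foxp3 as well. Without it the day 7 log2 fold change of Tcf7, exposed over air, was -0.05, against 0.01 with it, and neither was called by edgeR.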

How the results depend on the processing

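The call of Ccr7 at day 27 held under RLE size factors, no filter, a mean of at least 1 CPM, DESeq2, limma-voom, all 48 libraries in one fit and with total count as covariate on the log2 scale (log2 fold change -0.58 to -0.57, adjusted p 0.00503 to 0.0455). Members called at day 27 were 0 with 1 surrogate variable, 0 with the ribosomal protein share as covariate (chosen after seeing the data), 0 with close pairs summed, and 0 to 1 when a library was left out. The cause of these losses was not tested. Genes called at day 27 numbered 783 in all, and 474 with no filter, 1613 by DESeq2, 2227 with all 48 libraries, 57 with 1 surrogate variable, 0 with the ribosomal share, 31 with close pairs summed and 9 to 1926 with a library left out.

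For day 27 minus day 1 DESeq2 called 1 member, and leaving out a library gave 0 to 1 (1 without air day 27 library 4). For air day 7 over day 1 members called were 0 with no filter and 0 with close pairs summed (0 to 1 with a library left out). For air day 27 over day 7 the count was 1 with close pairs summed, and 1 to 4 with a library left out, the low being without air day 7 library 5 or air day 27 library 3 or 6. For exposed day 27 over day 7 it was 0 with no filter, 0 with close pairs summed and 0 to 1 with a library left out, Lef1 being lost without exposed day 7 libraries 1, 3 or 6 or exposed day 27 libraries 1, 2, 3, 4 or 6.

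Several log2 fold changes that were not called crossed 0. At day 1 these were Cd3d (-0.0039 with 1 surrogate variable, -0.00040 with pairs summed), Cd3g (0.0046 by voom, 0.022 with 1 surrogate variable, 0.043 with the ribosomal share), Cd4 (-0.032 with the total count), Ccr7 (-0.0058 with 1 surrogate variable), Tcf7 (-0.12 with 1 surrogate variable, -0.072 with the ribosomal share, -0.015 with pairs summed) and Foxp3 (-0.025 by voom, -0.20 with the total count). At day 7 Ccr7 was at 0.0023 with the ribosomal share and 0.00031 with pairs summed. At day 27, with the ribosomal share, Cd3d was at 0.025, Cd3g at 0.061 and Cd8a at 0.00022. Leaving out a library gave at day 1 Cd3d -0.026 to 0.10, Cd3g -0.078 to 0.030, Tcf7 -0.025 to 0.098 and Foxp3 -0.11 to 0.071. At day 7 it gave Cd3d -0.035 to 0.18, Cd3e -0.026 to 0.16, Ccr7 -0.14 to 0.028, Tcf7 -0.052 to 0.054 and Foxp3 -0.22 to 0.065, and at day 27 Tcf7 -0.12 to 0.030 and Foxp3 -0.10 to 0.18. No paired analysis was possible because the labels number each animal once and give no pairs. Depth limits Foxp3 most, at 6 to 30 counts per library.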
